A study of Mus musculus with 3 samples.

Results

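The cells described here were small-library erythroid cells of mouse bone marrow in which several interferon-induced transcripts were detected together. They were chosen by measured values: 500 to 2000 unique molecular identifiers (UMIs, each 1 captured RNA molecule) in 200 to 10000 genes, under 7.5% mitochondrial UMIs, at least 2 of the interferon genes Oasl2, Ifit1, Ifi44, Isg15 and Oas2 with a UMI, at least 1 UMI of the erythroid genes Slfn14, Xpo7, Alas2 and Tmcc2 together, fewer than 3 Cxcl12 UMIs, no Pf4 UMI, and under 60% of UMIs from the globin genes Hba-a1, Hba-a2, Hbb-bs and Hbb-bt. A total of 1047 cells met every condition, of 24081 cells that passed the study's quality limits and 30739 barcodes in all. They are called members below. Of them 74 came from the 2 mo library, 364 from the 12 mo library and 609 from the 24 mo library.

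The libraries were made from wild-type mice of 2, 12 and 24 months of age on the C57BL/Ka background, both sexes being used in the study, with no treatment in any group. Each age was 1 droplet library that pooled cells of 3 mice, and a cell cannot be traced to its mouse by barcode. Femurs and tibias were crushed and digested with enzymes, and live cells negative for CD45, CD71 and a lineage panel that included the erythroid antigen Ter-119 were sorted. The preparation was aimed at stromal cells, so the erythroid cells are those that passed that sort. The libraries held 84853330 to 104596341 UMIs, and the median kept cell had 6629 to 8382 UMIs. Between 20 and 30 barcodes were shared by any pair of libraries, and no pair of members shared one. Doublets were left in. A Scrublet score among the highest 6% of its library was given to 0, 2 and 4 members at 2, 12 and 24 mo, and to 3, 13 and 6 comparison cells.

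Red cells are made from nucleated precursors that fill with haemoglobin, stop dividing, clear their organelles and ribosomes, and expel the nucleus. Interferons bind cell surface receptors that signal through JAK kinases to a transcription factor complex that includes IRF9. This complex binds the interferon-stimulated response element, a pair of GAAA repeats in the promoters of antiviral genes, while interferon gamma is a strong inducer of immunity-related GTPases, of Irf1 and of antigen presentation genes.

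Promoter stretches are printed for 3 interferon genes of the rule and for 2 interferon-regulated genes outside it, the latter chosen after their values were seen, to show where the element GAAANNGAAA lies upstream of transcripts on which the results turn. Capitals mark every base of a match on either strand. Isg15 encodes a ubiquitin-like protein, Ifit1 an RNA-binding antiviral protein, Rsad2 the antiviral enzyme viperin, Igtp an immunity-related GTPase and Oasl2 a member of the oligoadenylate synthetase family. The sequences are RefSeq promoters of GRCm38.p6, printed 5′ to 3′ on the strand of the gene.
Isg15 (chr4:156200855-156200916, minus strand): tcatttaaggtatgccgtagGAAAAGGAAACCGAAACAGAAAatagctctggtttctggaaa
Ifit1 (chr19:34640765-34640833, plus strand): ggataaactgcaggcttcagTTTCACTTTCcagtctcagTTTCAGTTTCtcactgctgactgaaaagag
Rsad2 (chr12:26456543-26456592, minus strand): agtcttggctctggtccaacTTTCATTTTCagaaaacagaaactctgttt
Igtp (chr11:58199502-58199551, plus strand): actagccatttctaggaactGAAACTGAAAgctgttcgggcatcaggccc
Oasl2 (chr5:114896874-114896933, plus strand): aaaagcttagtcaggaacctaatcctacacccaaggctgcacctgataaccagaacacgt
Isg15 held 3 overlapping matches, Ifit1 held 2, and Rsad2 and Igtp held 1 each. In the 250 bases upstream of the start no match was found for Oasl2. Over all 27025 promoters 3.46% held the element in that window, against 36.5% of the 96 interferon-list genes with a promoter in the table. Among the interferon-list genes that were higher in 24 mo members (below), 7 of 17 promoters held it (41.2%), and among the other genes that were higher there 3 of 75 did (4.00%). A match is a string of letters and was not tested as a binding site. Promoters of Xpo7 and Usp18 were not analysed here.

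Members carried erythroid RNA at every age. All 19 detected genes of an erythroid marker list were found in the members of each library, every member had at least 1 UMI of that list, and the list's summed level in them was 34195, 30539 and 26345 CPM at 2, 12 and 24 mo. CPM are a gene's or list's UMIs scaled to 1000000 UMIs outside the 15 genes of the rule, pooled over the cells of a group. Ptprc, which encodes the CD45 antigen that the sort selected against, had UMIs in 1, 0 and 0 members. Tfrc encodes the transferrin receptor CD71, a further antigen of the sort, and its RNA was found in 83.8%, 94.8% and 80.6% of members. Their RNA thus included that of a surface protein used to exclude cells, and the protein itself was not measured in the files. T and NK cell markers and mast cell markers were at 0 in 24 mo members, and 2, 0 and 4 members had 5 or more UMIs of any list of another lineage. A single 2 mo member held 41 Il1b UMIs, the full count of that gene in the members of its library.

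Background from free RNA in the droplets was read in other low-RNA cells of the same libraries. Low-RNA cells with Lepr and at least 3 Cxcl12 UMIs, which are stromal and should lack erythroid transcripts, numbered 104, 53 and 197 and had median depths of 1486, 1312 and 1435 UMIs. Members had median depths of 780, 763 and 791 UMIs. A UMI of any of the 4 erythroid rule genes was found in 11.5%, 9.43% and 10.2% of those stromal cells. Rsad2 was found in 0.962%, 5.66% and 4.57% of them and in 98.6%, 98.9% and 97.0% of members. Other interferon genes were more frequent there. Isg15 was found in 18.3%, 13.2% and 24.9% of the stromal cells. At least 2 of the 5 interferon genes of the rule were found in 1.92%, 3.77% and 20.8% of them. Free RNA and the stromal cells' own interferon transcripts cannot be told apart in these values.

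The RNA of members was made up differently from that of larger erythroid cells (over 2000 UMIs and at least 0.2% of non-globin UMIs from the erythroid list, a limit chosen after the data were seen). Malat1, a long noncoding RNA retained in the nucleus, gave 15.7%, 17.1% and 17.9% of member UMIs at 2, 12 and 24 mo, and 0.584%, 0.669% and 0.589% in the larger erythroid cells. Every member had a Malat1 UMI. Mitochondrial genes gave 0.274%, 0.123% and 0.278% of member UMIs and 1.94%, 2.28% and 2.46% of those in larger cells. More than 1 in 2 members had no mitochondrial UMI at all (58.1%, 60.2% and 52.4%). The ribosomal protein and translation list reached 21647, 41335 and 39561 CPM in members and 267639, 285072 and 286756 CPM in larger cells. Transcripts of terminal erythroid maturation were the other way round, at 90297, 79433 and 77204 CPM in members and 24480, 19105 and 18710 CPM in larger cells. The size limit chose both groups, so these are descriptions. Members were thus rich in nuclear and late erythroid RNA and poor in mitochondrial and ribosomal protein RNA. Low-RNA erythroid cells with none of the 5 interferon genes lay between, with Malat1 at 10.7%, 14.9% and 14.9% of UMIs and mitochondrial genes at 1.34%, 0.917% and 0.689%.

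**Figure D1:**
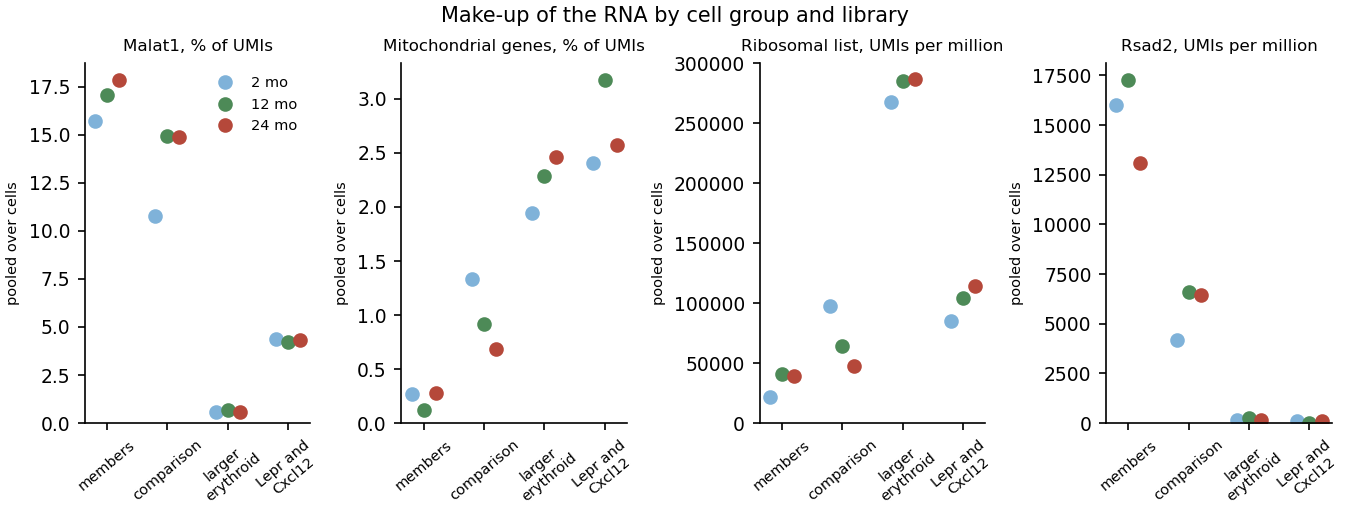
Pooled share of UMIs from Malat1 and from mitochondrial genes, and pooled level of the ribosomal list and of Rsad2, in members, comparison cells (low-RNA erythroid cells with none of the 5 interferon genes), larger erythroid cells and cells with Lepr and Cxcl12, each point being 1 library. Members have the highest Malat1 share at each age (15.7% to 17.9%) and the lowest mitochondrial share (0.123% to 0.278%).

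Members made up 7.36% of low-RNA cells at 2 mo (exact 95% interval for counting error 5.83 to 9.16; 74 of 1005 cells), 20.5% at 12 mo (18.6 to 22.4; 364 of 1777) and 25.9% at 24 mo (24.1 to 27.7; 609 of 2354). The share at 24 mo was 3.51 times that at 2 mo (2.79 to 4.42). Erythroid cells were themselves a larger part of the low-RNA cells in the older libraries, at 370, 1211 and 1451 cells. Among these low-RNA erythroid cells members were 20% (16 to 24.4), 30.1% (27.5 to 32.7) and 42.0% (39.4 to 44.6), a 24 mo to 2 mo ratio of 2.10. With 1 library per age there was no replicate, and no test of age was made; all intervals cover counting error only. At the limit of the rule, 62, 250 and 252 members had exactly 2 of the 5 genes, and a larger number of cells in each library, 127, 472 and 407, had exactly 1 and lay just outside.

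The older libraries differed in which interferon genes were found. Isg15 was the most often detected of the 5 in members, in 94.6%, 92.0% and 93.4% of them at 2, 12 and 24 mo, followed by Oasl2 in 66.2%, 74.2% and 78.3% and Ifit1 in 54.1%, 58.8% and 56.5%. Ifi44, an interferon-induced GTP-binding-like protein, was found in 4.05% and 4.40% of members at 2 and 12 mo and in 38.3% at 24 mo (34.4 to 42.3). Oas2, which makes the 2-5A messenger that activates RNase L, was found in 1.35%, 5.22% and 19.5%. Members with 4 or 5 of the genes were 2 of 74 at 2 mo (2.70%), 11 of 364 at 12 mo (3.02%) and 140 of 609 at 24 mo (23%, 19.7 to 26.5). These genes chose the cells, so the values describe the members only. Of the erythroid genes, Xpo7 (a nuclear exportin), Tmcc2 and Slfn14 (a ribosome-associated endoribonuclease) were each found in 89.8% or more of members at every age, and Alas2, the first enzyme of haem synthesis in red cells, in 45.3% to 56.0%.

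**Figure D2:**
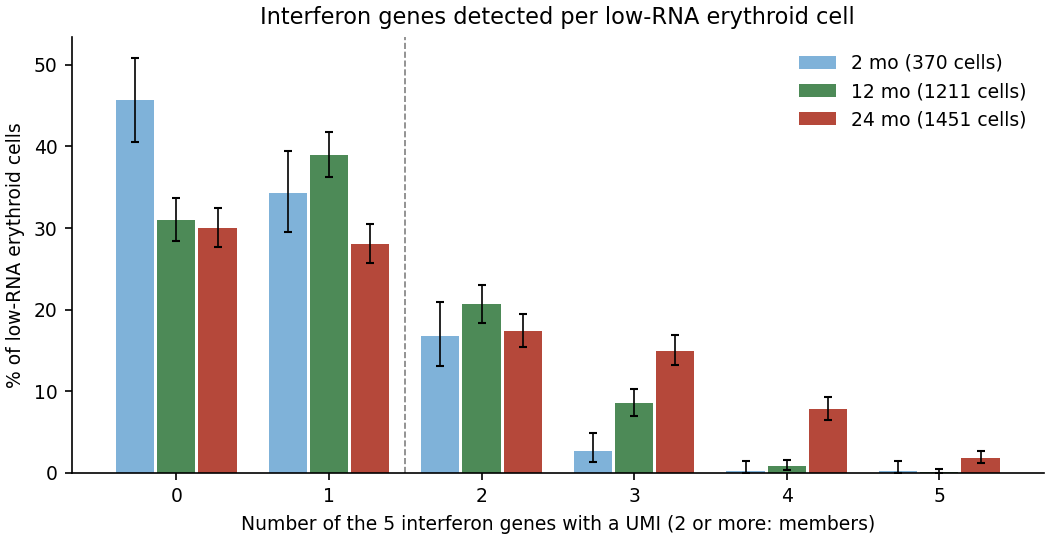
Percent of low-RNA erythroid cells (y axis) with a UMI of 0 to 5 of the rule's interferon genes (x axis), by library, with exact 95% counting intervals; members lie to the right of the dashed line. The 24 mo bars are the highest at 3, 4 and 5 genes (15.0%, 7.79% and 1.86%), and the 2 mo bar is the highest at 0 (45.7%).

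Sex-linked transcripts divided the 24 mo members from their neighbours, which bears on every age difference above because each library pooled 3 mice. Cells were marked by a UMI of 4 Y-linked genes and no Xist, or by Xist (the RNA that coats the inactive X chromosome) and no Y-linked gene; most low-RNA cells showed neither. Among 24 mo members 81 carried Y-linked and 29 Xist UMIs, whereas among comparison cells of the same library 7 and 114 did. In the 12 mo library 0 members carried Y-linked and 143 carried Xist UMIs, and at 2 mo the counts were 6 and 12. At 24 mo, 75% of the 108 low-RNA erythroid cells with Y-linked UMIs were members (65.7 to 82.8), against 13.0% of the 223 with Xist UMIs (8.89 to 18.1). Of the 1120 with neither mark 44.6% were members (41.6 to 47.5), and these were 499 of the 609 members. Median depths were 867, 734 and 713 UMIs in Y-marked, Xist-marked and unmarked cells. At 2 mo the order was turned, with 13.3% of 45 and 27.9% of 43, though those intervals overlapped (5.05 to 26.8 and 15.3 to 43.7). At 12 mo the share was 32.9% of 434 cells with Xist, and only 3 cells carried Y-linked UMIs. Taken within Xist-marked cells, the share of members was 0.466 times as high at 24 mo as at 2 mo (0.259 to 0.839), so that the direction of the pooled ratio was reversed; within Y-marked cells the ratio was 5.63 (2.65 to 11.9). Age, sex and individual mouse cannot be told apart in these libraries.

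The same division was present in larger erythroid cells, whose depth allowed most of them to be marked. At 24 mo 62.6% of 800 larger cells with Y-linked UMIs had 2 or more of the 5 interferon genes (59.2 to 66.0), against 5.57% of 1042 with Xist (4.25 to 7.14), at median depths of 13924 and 13444 UMIs. At 2 mo the values were 5.59% of 913 and 27.8% of 324, at unequal median depths of 13770 and 19679 UMIs. At 12 mo they were 8.93% of 168 and 25.2% of 1587, at 22231 and 15573 UMIs. Larger cells with 2 or more of the genes had a Scrublet score in the highest 6% in 32.7%, 27.2% and 13.1% of cases at 2, 12 and 24 mo. Of all larger erythroid cells 9.29%, 11.6% and 8.31% did, and doublets were not taken out of these shares. After each cell was thinned to 500 UMIs, 7.89% of Y-marked and 14.2% of Xist-marked larger cells at 2 mo had at least 1 of the genes, a smaller gap than before thinning with intervals that did not overlap (6.22 to 9.83 and 10.6 to 18.5), and 7.74% and 17.3% did at 12 mo. By the same measure 39.4% of Y-marked and 7.01% of Xist-marked larger cells at 24 mo had at least 1 of the genes, and 88.9% and 41.3% of low-RNA erythroid cells did. Stromal cells with Lepr and Cxcl12 at 24 mo had 2 or more of the genes in 39.9% of 1084 Y-marked and 23.8% of 164 Xist-marked cells, at median depths of 5395 and 4236.5 UMIs. At 12 mo the values were 23.3% of 258 and 43.8% of 251, at 8827.5 and 4479 UMIs. At 2 mo they were 23.8% of 977 and 26.7% of 116, at 5384 and 6089 UMIs. Stromal cells were not thinned.

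**Figure D3:**
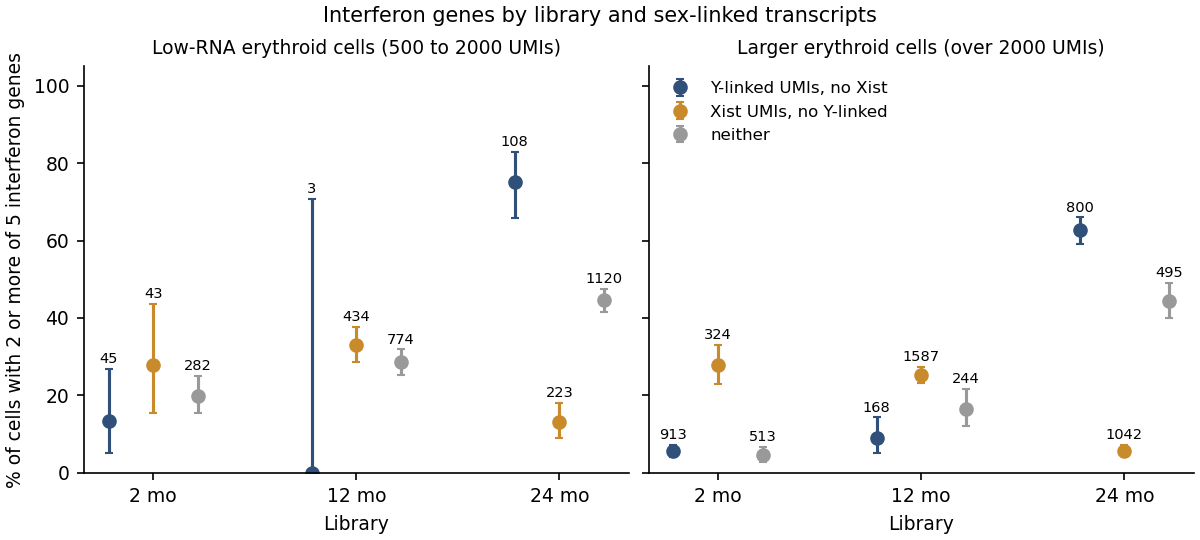
Percent of cells with 2 or more of the 5 interferon genes (y axis) by library and by sex-linked UMIs, in low-RNA erythroid cells (left, where these are the members) and larger erythroid cells (right), with exact 95% counting intervals and the number of cells above each point. At 24 mo Y-marked cells lie at 75% and 62.6% and Xist-marked cells at 13.0% and 5.57%, and at 2 mo Xist-marked cells are the higher in both panels.

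Interferon-regulated genes that the rule did not use were higher in members than in low-RNA erythroid cells with none of the 5 genes (comparison cells; 169, 375 and 435 at 2, 12 and 24 mo). Both groups were cut by interferon genes from the same libraries, so the ratios are descriptions and carry no test. A gene was called higher or lower at a 2-fold difference with the 95% counting interval beyond 1, among genes whose mean level was worth at least 20 UMIs in the smaller group. That mean is over both groups, so a gene scarce in comparison cells was measured only where members were high. At 24 mo 23 of 33 measured interferon genes were higher and none lower (median log2 ratio 2.42), against 8.3% of all 1385 measured genes higher and 7.22% lower with a median of -0.08. At 12 mo 23 of 30 were higher and none lower (median log2 ratio 2.14), against 3.81% of all genes higher and 9.37% lower. At 2 mo members held 49891 UMIs in all, and 3 of the 5 measured interferon genes were higher, against 10.7% of all genes higher and 24.7% lower.

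None of the 13 interferon ligand genes listed had a UMI in low-RNA erythroid cells of any age. Among receptors and signal transducers, Irf9, the DNA-binding partner in the complex that binds the response element, had 347 UMIs in 24 mo members and 44 in comparison cells, or 815 and 165 CPM, a 4.95-fold ratio (3.61 to 6.93). Its ratio at 12 mo was 4.01 (2.94 to 5.55). Irf7, a regulator of type I interferon production, was 3.68-fold and 3.13-fold higher. The type I receptor chains were not among the genes called at 24 mo, with ratios of 0.83 for Ifnar1 (0.589 to 1.17) and 1.24 for Ifnar2 (0.921 to 1.67). The kinases Jak1 and Jak2 had ratios of 1.75 and 1.64 there and were not called either.

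Antiviral effectors formed the largest group, with 9 of 14 measured genes higher at 24 mo and 10 of 13 at 12 mo. Of all measured genes 8.3% and 3.81% were higher. Rsad2 was high in low-RNA erythroid cells of every kind: it stood at 16015, 17253 and 13075 CPM in members at 2, 12 and 24 mo and at 4185, 6598 and 6459 CPM in comparison cells. It was found in 66.3%, 80.3% and 84.4% of comparison cells, and stood at only 150, 244 and 135 CPM in larger erythroid cells. Rtp4, an interferon-induced receptor chaperone with antiviral activity, had 230 and 8 UMIs in 24 mo members and comparison cells, an 18.0-fold ratio (9.0 to 42.3). Trim30a, of the tripartite motif family, was 15.1-fold higher (7.19 to 38.3). Xaf1 was 6.62-fold higher, Sp100, a nuclear body protein, 6.45-fold, and Cmpk2, the neighbour of Rsad2 in the genome, 5.54-fold. At 12 mo these genes ranged from 2.61-fold (Rsad2) to 8.60-fold (Rtp4). Oas3 was the single sensor measured at 24 mo, at 7.76-fold.

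The enzymes of the ISG15 system and of ADP-ribosylation were higher in 5 of 6 measured cases at both 24 and 12 mo. The shares over all measured genes were 8.3% and 3.81%. Usp18, the protease that removes ISG15 and damps type I interferon signalling, had 138 UMIs in 24 mo members and 3 in comparison cells, a 28.9-fold ratio (9.67 to 142), and a 10.1-fold ratio at 12 mo. Parp14 was 20.5-fold and 6.13-fold higher. Herc6, the mouse ISG15 ligase, was 7.30-fold higher at 24 mo, and Uba7, which activates ISG15, was 5.34-fold higher. Ube2l6, which carries ISG15 to its ligase, missed the limit at 1.95-fold.

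All 5 measured GTPases were higher at 24 mo and all 3 at 12 mo, against 8.3% and 3.81% of all measured genes. Irgm1, a regulator of the immunity-related GTPases, had 150 and 3 UMIs in 24 mo members and comparison cells (31.4-fold, 10.5 to 154). Igtp had 388 and 20 UMIs (12.2-fold, 7.77 to 20.2) and was 8.87-fold higher at 12 mo. Iigp1, an effector GTPase of the same family, had 164 UMIs in 24 mo members and 1 in 12 mo members. Its 24 mo ratio was 7.35 (4.26 to 13.7). The 164 UMIs lay in 71 members, with 29 in 1 cell and 48 in 3 cells. Of the 14 UMIs in comparison cells 12 lay in 3 cells. The interval covers counting error only and not this clustering in single cells. Among members, Iigp1 UMIs thus came almost wholly from the 24 mo library.

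**Figure D4:**
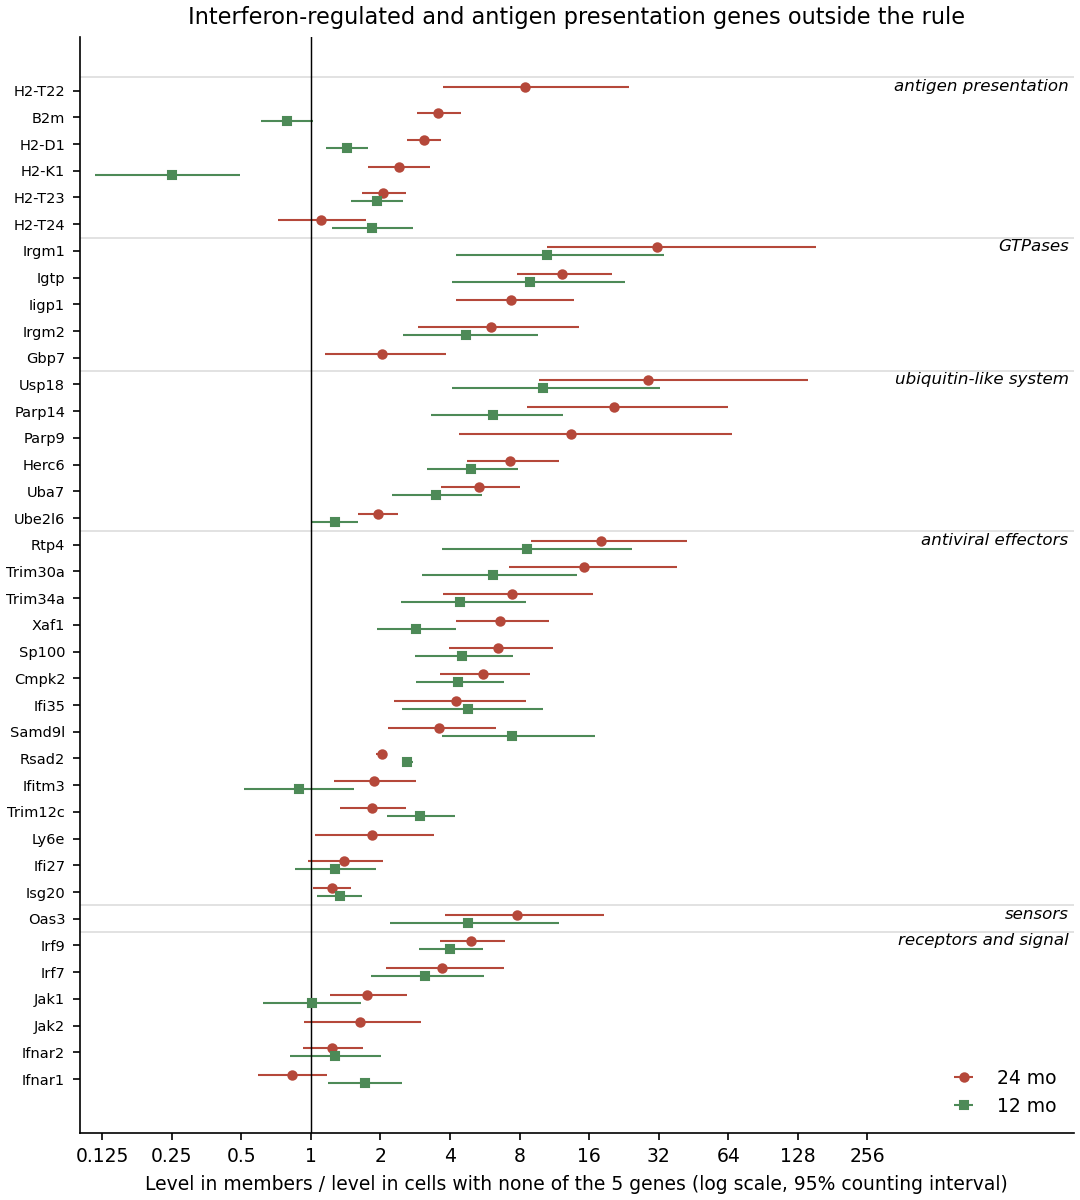
Ratio of the level in members to that in comparison cells (x axis, log scale) with 95% counting intervals, for interferon-regulated and antigen presentation genes outside the rule that were measured at 24 mo (red) and, where measured, at 12 mo (green), grouped by role. Usp18, Irgm1 and Igtp lie above 8 at both ages, and B2m and H2-K1 lie above 2 at 24 mo and below 1 at 12 mo.

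Class I antigen presentation genes separated the libraries. At 24 mo 5 of 6 measured genes were higher in members: H2-T22 at 8.47-fold, B2m, the class I light chain, at 3.56-fold (2.87 to 4.46), H2-D1 at 3.09-fold, H2-K1 at 2.40-fold and H2-T23 at 2.06-fold. At 12 mo 0 of 5 were higher and 1 was lower, namely H2-K1 at 0.25-fold (0.116 to 0.494), and B2m had a ratio of 0.79 (0.608 to 1.03). Of all measured genes 8.3% were higher at 24 mo, while 3.81% were higher and 9.37% lower at 12 mo. The B2m level in members was 641, 435 and 1319 CPM at 2, 12 and 24 mo, and that of H2-K1 was 80.2, 43.5 and 493 CPM. Within the 24 mo library the list summed to 6376 CPM in the 81 Y-marked members and to 1693 CPM in the 29 Xist-marked members. In comparison cells it summed to 6133 CPM in the 7 Y-marked cells (4295 to 8490, 36 UMIs) and to 1493 CPM in the 114 Xist-marked cells (1237 to 1787). The intervals of members and comparison cells thus overlapped within each marker, while those of Y-marked and Xist-marked cells did not. The pooled ratios of the list therefore cannot be told apart from the different mix of Y-marked and Xist-marked cells in members and comparison cells. H2-K1 had 43 UMIs in Y-marked members and 0 in Xist-marked members, against 4 and 13 in comparison cells.

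Within the 24 mo library some interferon genes differed between Y-marked and Xist-marked members. Rsad2 weighed heavily in the sums below. It gave 13075 of 27958 CPM in all 24 mo members and 6459 of 10613 CPM in comparison cells of that library. Like sums therefore do not show like levels of the other interferon genes. The interferon lists summed to 29278 CPM in Y-marked and 30032 CPM in Xist-marked 24 mo members, to 28290 CPM in Xist-marked 12 mo members, and to 9172 CPM in Xist-marked and 11244 CPM in Y-marked 24 mo comparison cells. Irgm1 stood at 213, 242 and 238 CPM in the first 3 groups, and Parp14 at 365, 242 and 348. Each value of the Xist-marked 24 mo members rests on 5 UMIs, and the intervals of the 3 groups overlapped for both genes. Over all members Irgm1 stood at 352 CPM at 24 mo (150 UMIs) and 217 CPM at 12 mo (55 UMIs). The GTPase list as a whole stood at 2967, 1112 and 916 CPM, with Iigp1 at 959, 48.4 and 9.16 CPM (63, 1 and 1 UMIs) and Igtp at 989, 242 and 275. The 7 Y-marked comparison cells also held 6 Iigp1 UMIs, in 2 cells, and the 114 Xist-marked ones held 1. Ifi44, a gene of the rule, had 989 CPM in Y-marked 24 mo members and no UMI in Xist-marked ones. The chemokine and surface list stood at 730, 96.7 and 9.16 CPM; of that list Cxcl9, a chemokine induced by interferon gamma, had 26 UMIs in all 24 mo members and 0 in 12 mo members. Irf1, a transcription factor induced early by interferon gamma, had 32 and 0.

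Genes outside the interferon lists were among those highest in 24 mo members. By the lower bound of the ratio the 12 highest included Irgm1, Usp18, Cebpb, Rtp4, Parp14, Trim12a, Igtp, Cish, Trim30a, Samhd1 and Tsc22d2. The interferon lists did not hold Trim12a, a relative of Trim30a (14.2-fold, and 7.96-fold at 12 mo), nor Samhd1, a dNTPase that limits retroviral replication (14.4-fold, and 10.3-fold at 12 mo). Cebpb, a bZIP transcription factor of emergency granulopoiesis, had 112 UMIs in 24 mo members, 2 in 24 mo comparison cells and 1 in 12 mo members. Cish, a feedback inhibitor of cytokine receptors that signal through STAT5, had 89, 2 and 0 UMIs in the same groups. Tsc22d2 was 11.5-fold higher at 24 mo and had a ratio of 0.34 at 12 mo. Of the 115 genes higher at 24 mo, 23 were in interferon lists and 5 in the antigen presentation list, while of the 48 higher at 12 mo 23 were in interferon lists and none in the antigen presentation list.

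Members of the stress and apoptosis lists were in this group. Ddit3, which encodes the stress response factor CHOP, had 232 and 25 UMIs in 24 mo members and comparison cells (5.82-fold, 3.85 to 9.18) and 15 and 22 at 12 mo (0.65, 0.314 to 1.31). Atf5, a factor of the same stress response, had 59 and 3 UMIs at 24 mo. Bbc3, which encodes the pro-apoptotic BH3-only protein PUMA, was 4.97-fold higher at 24 mo and had a ratio of 0.72 at 12 mo. In all, 2 of 2 measured apoptosis genes (Bbc3 and Trp53inp1) and 3 of 7 stress genes (Ddit3, Ddit4 and Jund) were higher at 24 mo, where 8.3% of all measured genes were, against 0 of 1 and 0 of 5 at 12 mo, where 3.81% were. Bbc3 stood at 48.6 CPM in 24 mo comparison cells, and a gene that scarce there was measured only through its level in members. The counts therefore describe the measured genes and not the apoptosis list as a whole. In Y-marked 24 mo members Ddit3, Bbc3, Klf6, Cish, Cebpb and Atf5 stood at 517, 213, 365, 183, 167 and 107 CPM. In Xist-marked members of that library Ddit3 had 2 UMIs, Bbc3 and Klf6 1 each, and Cish, Cebpb and Atf5 none, among 29 cells. These 29 cells held 20678 UMIs, where a count of 0 allows up to 145 CPM (3 UMIs), so a lower level of Atf5 was not detectable at this depth and those of Cish and Cebpb lay close to the limit; the intervals of Bbc3 overlapped as well. In the 143 Xist-marked 12 mo members, which allow up to 27.5 CPM, Cish and Cebpb also had no UMI. Klf6 and Atf5 were named after their values were seen.

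**Figure D5:**
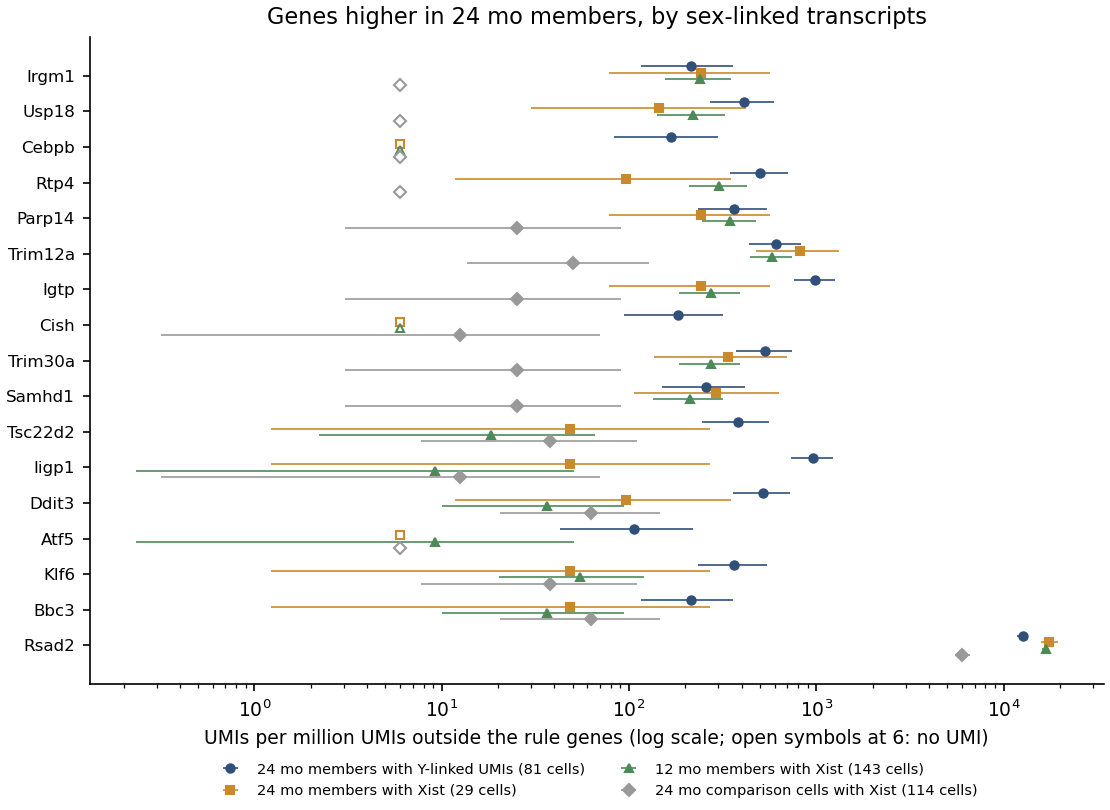
Level (x axis, CPM on a log scale) with exact 95% counting intervals of genes among the 12 highest in 24 mo members and of 6 further genes, in 24 mo members with Y-linked or Xist UMIs, 12 mo members with Xist and 24 mo comparison cells with Xist; open symbols mark genes with no UMI. The intervals of Irgm1 and Samhd1 overlap in the 3 groups of members, whereas Cebpb and Cish have UMIs in Y-marked members and none in the other 2 groups of members.

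The erythroid programme differed little between members and comparison cells at 24 mo. Of 46 measured terminal maturation genes 0 were higher and 1 was lower (median log2 ratio -0.03), against 8.3% and 7.22% of all measured genes. Of 16 haem synthesis genes none was called, with a median of -0.25. Slc4a1, the band 3 anion exchanger, had a ratio of 0.78 (0.724 to 0.829). Bpgm, which makes the regulator of oxygen affinity 2,3-bisphosphoglycerate, had a ratio of 0.84. Tfrc had a ratio of 0.62 at 24 mo and 1.08 at 12 mo. In the membrane list Tmod3 was 3.06-fold higher, and Aqp1, the water channel (0.17), Kel (0.41) and Rhd (0.47), which carry blood groups, were lower. Aqp1 stood at 283 CPM (183 to 418) in Y-marked and 520 CPM (412 to 647) in Xist-marked 24 mo low-RNA erythroid cells. Members and comparison cells of that library differed in their mix of these marks. At 12 mo, where 0 members and 1 comparison cell were Y-marked, Aqp1 had a ratio of 0.13 (0.063 to 0.248, 11 and 80 UMIs). The terminal list did not keep its sign across libraries, with medians of 0.21 at 12 mo and 0.68 at 2 mo.

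Transcripts of dividing cells were lower in members. At 24 mo 8 of 10 measured S-phase genes and 6 of 19 mitotic genes were lower and none was higher, against 7.22% of all measured genes lower. At 12 mo 6 of 7 and 7 of 21 were lower, against 9.37% of all genes. Lbr, the lamin B receptor, had 29 UMIs in 24 mo members and 114 in comparison cells (0.16, 0.102 to 0.242), and 6 and 91 at 12 mo. Top2a, the topoisomerase of dividing cells, had ratios of 0.26 and 0.22 at 24 and 12 mo. The mitotic gene Cenpf differed between libraries, with ratios of 0.30 at 24 mo and 1.03 at 12 mo. In 24 mo low-RNA erythroid cells Cenpf stood at 113 CPM in Y-marked and 650 CPM in Xist-marked cells (54.3 to 208 and 529 to 790). Lbr stood at 90.6 and 559 CPM there, and Top2a at 272 and 585 CPM. Of the Y-marked and Xist-marked cells 75% and 13.0% were members, so the contrast largely repeated that of members and other cells. It therefore cannot tell the 24 mo ratios of these genes apart from the different mix of marked cells. At 2 mo the mitotic list stood at 4123 CPM in Xist-marked members and 17467 CPM in Xist-marked comparison cells (12 cells each). In 6 Y-marked members and 27 Y-marked comparison cells it stood at 5836 and 20036 CPM. At 12 mo 0 members and 1 comparison cell were Y-marked. Mitochondrial genes together had ratios of summed levels of 0.215, 0.137 and 0.413 at 2, 12 and 24 mo. Single cells did not all follow these sums: at 24 mo 52.4% of members and 55.6% of comparison cells had no mitochondrial UMI, with an upper quartile of 0.158% and 0.179% of UMIs, whereas at 2 mo 58.1% and 43.8% had none and at 12 mo 60.2% and 53.3%. Ribosomal protein and translation genes were called in 0 of 66 cases at 24 mo, with a median log2 ratio of -0.27; at 2 mo 62 of 63 were lower, against 24.7% of all measured genes, with a median of -2.27, and the list summed to 21647 CPM in members and 97506 CPM in comparison cells there. Xist (0.14) and Tsix (0.05) were among the 12 lowest genes at 24 mo, beside the counts of marked cells given above. Spp1 was also among them, but all 567 of its UMIs in comparison cells lay in 3 cells, 440 of them in 1 cell.

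Interferon transcripts outside the rule differed class by class with the number of rule genes found in a cell. The classes count the rule's own interferon genes, so these values are descriptions and carry no test of the limit. Median depths at 24 mo were 675, 685, 756, 820 and 800 UMIs in cells with 0, 1, 2, 3 and 4 or 5 of the genes. At 24 mo the interferon lists outside the rule summed to 10613, 16052, 22734, 29704 and 33894 CPM in cells with 0, 1, 2, 3 and 4 or 5 of the genes. Without Rsad2 these sums were 4154, 7237, 11218.5, 16076 and 19095 CPM. Igtp went from 74.8 to 1263 CPM over the same classes. S-phase genes went from 3461 CPM in cells with none to 1458 CPM in cells with 4 or 5. Y-marked cells numbered 7, 20, 28, 28 and 25 and Xist-marked cells 114, 80, 15, 14 and 0 in these classes. With every cell thinned to 500 UMIs, members had a mean of 4.88 ± 3.4, 4.97 ± 3.22 and 5.95 ± 3.21 interferon genes outside the rule (SD over 74, 364 and 609 cells) at 2, 12 and 24 mo, and comparison cells 2.03, 2.31 and 2.31.

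All low-RNA erythroid cells, taken without the interferon part of the rule, allowed the libraries to be compared on genes that had not chosen the cells. From 2 to 24 mo 10 of 30 measured interferon genes were higher and none lower (median log2 ratio 0.61), against 3.07% of all 1368 genes higher and 7.38% lower. Iigp1 had 2 UMIs at 2 mo and 192 at 24 mo (25.3-fold, 6.92 to 211), an interval that leaves out its clustering in single cells. Igtp was 6.88-fold higher (4.30 to 11.7), Rtp4 6.19-fold, Trim30a 5.78-fold, Ddit3 5.75-fold and H2-K1 2.38-fold. Irf9 (1.76) and Rsad2 (1.27) were below the limit. From 12 to 24 mo 6 of 49 interferon genes were higher, against 3.68% of all genes higher and 1% lower, and Irf9 (1.05) was near 1 while Iigp1 had 2 and 192 UMIs. The summed level of the lists at 24 mo was 1.41 times that at 2 mo (1.36 to 1.47), 1.98 times in Y-marked cells and 0.915 times in Xist-marked cells (0.827 to 1.01), the last with the opposite sign. Without Rsad2 the ratio over all these cells was 1.60 (1.51 to 1.69). The sums without Rsad2 at 2 and 24 mo were then 5523 and 14931 CPM in Y-marked cells, and 6652 and 5087 CPM in Xist-marked cells.

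In larger erythroid cells of the 24 mo library, which the rule left out, 65 of 94 measured interferon genes were higher in Y-marked than in Xist-marked cells and none was lower, against 4.86% of all 9049 genes higher and 1.15% lower. The median log2 ratio was 1.61, and 0.09 over all genes. All 14 measured GTPases were higher, with Iigp1 at 1228 UMIs in Y-marked and 1 in Xist-marked cells, and 23 of 25 antigen presentation genes were higher, H2-K1 5.22-fold (4.95 to 5.51). Cebpb (27.7-fold), Cish (16.9-fold), Irf1 (30.6-fold) and Atf5 (5.14-fold) were higher there too. Ddit3 (1.37) and Bbc3 (1.46) did not reach the limit, in contrast to their values in low-RNA erythroid cells of the same library, where Ddit3 was 5.81-fold higher in Y-marked cells; the difference between these ratios was not tested. Terminal erythroid genes were called in 0 of 54 cases. At 2 mo 0 of 69 interferon genes were higher in Y-marked than in Xist-marked larger cells and 1 was lower, against 2.16% of all genes higher and 0.883% lower.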

How the data were processed

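Bone marrow cells of wild-type mice were profiled by droplet 3′ single-cell RNA sequencing, 1 library per age. The authors deposited filtered matrices of UMI counts per gene and barcode, made with Cell Ranger 6.1.2 on mm10 and analysed by them with Seurat 4.2.3 in R 4.0.2, per the submitters' processing notes. Here raw counts were read in Python 3.11.15 (scanpy 1.11.5, scipy 1.17.1). The study's limits were applied to cells (200 to 10000 genes, 500 to 100000 UMIs, mitochondrial share below 7.5%). Depth was 84853330 to 104596341 UMIs per library. Counts were summed over the cells of a group. Intervals were exact (Clopper-Pearson for shares, Poisson for levels, conditional binomial for ratios; log-normal for a ratio of shares), at 95%, and cover counting error only. A count of 0 was set to a floor of 3 UMIs per group in medians. No p-value was computed. The calculation was tested on simulated counts. Genes were named from the rule, from gene lists (those with most UMIs or ratios furthest from 1) and as the 12 highest and 12 lowest ratios at 24 mo. The members and lists were chosen with earlier results of these data known. The alternatives included other UMI limits, thinning, leaving out each interferon gene, Scrublet scores, sex-linked UMIs and cells with markers of another lineage. Values of some single genes are not reported here.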

Additional observations from a re-analysis of the deposited data

How the results depend on the processing

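The share of members among 24 mo low-RNA cells (25.9%) was 28.7% and 19.4% for cells with up to and over 1000 UMIs, 21.0% after thinning to 500 UMIs, 15.2% with 3 of the 5 genes required, 18.8%, 22.4% and 16.6% without Oasl2, Ifit1 or Isg15, 27.9% under 5% mitochondrial UMIs, 42.0% of low-RNA erythroid cells, 75% and 13.0% of those with Y-linked or Xist UMIs, and 36.1% without cells of other lineages. The 24 to 2 mo ratio (3.51) was 12.7 with 3 genes required, 5.11, 4.89 and 10.4 without Oasl2, Ifit1 or Isg15, 2.10 over erythroid cells and 2.55 without other lineages. Among low-RNA erythroid cells, where the pooled ratio was 2.10, it was 5.63 in Y-marked cells and, reversed, 0.466 in Xist-marked cells. With fewer genes tested, the 23 of 33 interferon genes that were higher (69.7%) became 13 of 20 (65%) at a mean worth 50 UMIs and 3 of 5 (60%) in the 2 mo library. The 215 called of 1385 genes became 132 of 1018 after thinning, 68 of 743 at 50 UMIs and 15 of 164 in Xist-marked cells. The terminal erythroid median turned to 0.68, 0.21 and 0.34 at 2 mo, at 12 mo and in Xist-marked cells, and the ribosomal median (-0.27) was -2.27, -0.62 and -0.73 there and -0.17 without high Scrublet scores. The summed interferon ratio, 24 to 2 mo (1.41), was 0.915 in Xist-marked cells and 1.60 without Rsad2. Of 103 values under alternatives 66 moved by less than the limit set for them, 32 moved by more and 5 were reversed. For the share of members at 24 mo, 12 of 17 alternatives moved by more. The interferon median, members to comparison cells, stayed between 1.53 and 2.87 under 10 alternatives. The choices by sex-linked UMIs, by other lineages and without Rsad2 were made after seeing the data. No paired analysis was possible because each age was 1 library. Depth left 5 interferon genes measured at 2 mo, and 3 mice per library cannot be separated.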
